A study of Rattus norvegicus with 9 samples.

Results

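The genes described here are 8 genes of the brain extracellular matrix and of perineuronal nets, Acan, Bcan, Ncan, Vcan, Hapln1, Hapln4, Tnr and Tnc. They were chosen by name from the 37209 genes of the count table, and all 8 passed the filter on low counts that left 16837 genes for testing. Total RNA depleted of rRNA was sequenced from the frontal cortex, called the PFC in the methods, of 9 male Wistar rats aged 14 weeks by the labels, 3 in each group. Control rats stayed with their mothers until weaning. The neonatal maternal separation (MS) group was kept from its mothers for 4 h a day from postnatal day (PND) 1 to PND 21. The MS+EA group had the same separation and then electroacupuncture (EA) at the points Baihui and Yintang every other day from PND 61 to PND 81. EA was given under anaesthesia, and by the methods the Control and MS rats were anaesthetized without needling. A sham EA group, with a needle on the surface near the points and no current, was used in the behavioural tests. It is not among the libraries analysed here. All MS+EA rats had both the inserted needles and the current, so these cannot be told apart. Rats are called by their labels, in which A1, A2 and A6 are Control rats, B3, B4 and B6 belong to the MS group and C3, C10 and C16 to the MS+EA group, and values are given in that order. Nothing in the labels says whether rats of a group came from 1 litter or from several.

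Perineuronal nets are lattices of matrix that wrap the cell body and proximal dendrites of some neurons, in the cortex above all the parvalbumin interneurons. A backbone of hyaluronan carries chondroitin sulphate proteoglycans of the lectican family (aggrecan, brevican, neurocan and versican), link proteins fix each lectican to the hyaluronan, and tenascin-R joins the far ends of the lecticans to each other. The nets form late in postnatal development, at the close of critical periods, and are known to restrict plasticity in the adult cortex.

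Each of the 4 lectican genes lies next to a link protein gene. In the gene order of the RefSeq annotation, Acan is followed by Hapln3, Bcan by Hapln2 and Ncan by Hapln4, and Hapln1 is followed by Vcan, with no other protein-coding gene between them. No protein-coding gene overlaps any of the 8 genes, while Tnr and Tnc each overlap 1 non-coding gene that the count table does not list by that name. The upstream sequences of Hapln1 and Vcan are shown because Hapln1 was the gene of the 8 that differed most between the groups and Vcan is its neighbour, on the opposite strand. They are the 250 bases before the annotated start, from RefSeq on the build GRCr8 (the reads were mapped to Rnor_6.0), at chr2:22366717-22366966 on the plus strand for Hapln1 and at chr2:22595956-22596205 on the minus strand for the first of 2 starts of Vcan. Capitals mark the motifs found.
Hapln1: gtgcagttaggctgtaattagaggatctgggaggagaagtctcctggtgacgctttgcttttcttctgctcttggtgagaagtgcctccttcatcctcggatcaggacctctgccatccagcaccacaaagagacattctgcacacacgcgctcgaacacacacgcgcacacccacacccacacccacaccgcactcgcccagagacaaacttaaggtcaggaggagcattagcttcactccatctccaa
Vcan: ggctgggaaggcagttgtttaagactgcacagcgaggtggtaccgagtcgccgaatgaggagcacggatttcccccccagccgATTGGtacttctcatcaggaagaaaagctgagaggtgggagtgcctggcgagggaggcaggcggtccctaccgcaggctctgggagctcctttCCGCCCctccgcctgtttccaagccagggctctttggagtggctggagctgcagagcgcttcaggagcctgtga
Motifs were searched on both strands and could overlap. They were the TATA box (TATAAA), the CCAAT box (CCAAT), the GC box (GGGCGG), the E box (CACGTG) and the AP-1 site (TGANTCA). The Hapln1 window held none of them, 54% G and C bases and 9 CG dinucleotides. The Vcan window shown held 1 CCAAT box and 1 GC box, both read on the reverse strand, with 61.6% G and C and 12 CG dinucleotides. The window of the other Vcan start held 0 CCAAT boxes and 1 GC box, with 60% G and C and 9 CG dinucleotides. Over 27457 promoters, 1 for each gene, 13.1% held a TATA box, 34.3% a CCAAT box, 32.4% a GC box, 5.79% an E box and 6.36% an AP-1 site, with medians of 52% G and C and 6 CG dinucleotides. Among the other 6 genes, the Acan window had the most CG dinucleotides, 24, with 3 GC boxes, and the Tnr window had 0, with 2 CCAAT boxes. These matches are a description of the letters in the windows.

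The libraries held 16153292 to 19007907 counts in Control rats, 16106381 to 17243320 in MS rats and 12479905 to 14913736 in MS+EA rats, so every MS+EA library was smaller than every other. The share of counts on lncRNA genes was 0.798 to 0.908% in Control, 0.852 to 0.964% in MS and 0.976 to 1.13% in MS+EA rats, with every MS+EA rat above every other rat. B4 stood apart, with a summed level of 543 CPM (counts per 1000000 counts, scaled by TMM) of 10 meningeal fibroblast markers. Control rats held 49.5 to 60.0 CPM. All other separated rats lay between, at 71.5 and 128 CPM in the MS group and at 185, 74.6 and 291 CPM in the MS+EA group. B4 also held 258 reads of Oxt and 503 of Avp, hormones of hypothalamic neurons. Every other rat held at most 29 reads of either. Markers of cortical excitatory neurons had a summed level of 4178 to 5501 CPM over the 9 rats, and none of the 10 was at 0. In bulk tissue, fewer cells of a type and less RNA per cell cannot be told apart.

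To ask whether net components changed after separation and after EA, expression was compared between each pair of groups as log2 fold changes from the quasi-likelihood test of edgeR, in which a gene was called when its fold change passed 1.5 with an adjusted p below 0.05. None of the 8 genes was called in any of the 3 comparisons. Hapln1 rose from Control to MS+EA by 1.46-fold at an adjusted p of 0.0131, just under the fold threshold. The other 7 genes had adjusted p-values of at least 0.244 in all 3 comparisons. Over all 16837 genes, 0.0238% were called between MS and Control, 0.0178% between MS+EA and MS, and 1.37% between MS+EA and Control. Without the fold threshold, 0.0238%, 0.0178% and 5.4% of genes passed in these comparisons, against 0, 0 and 1 of the 8 genes. The 3 comparisons share their groups, so none of them is independent of the others.

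**Figure D1:**
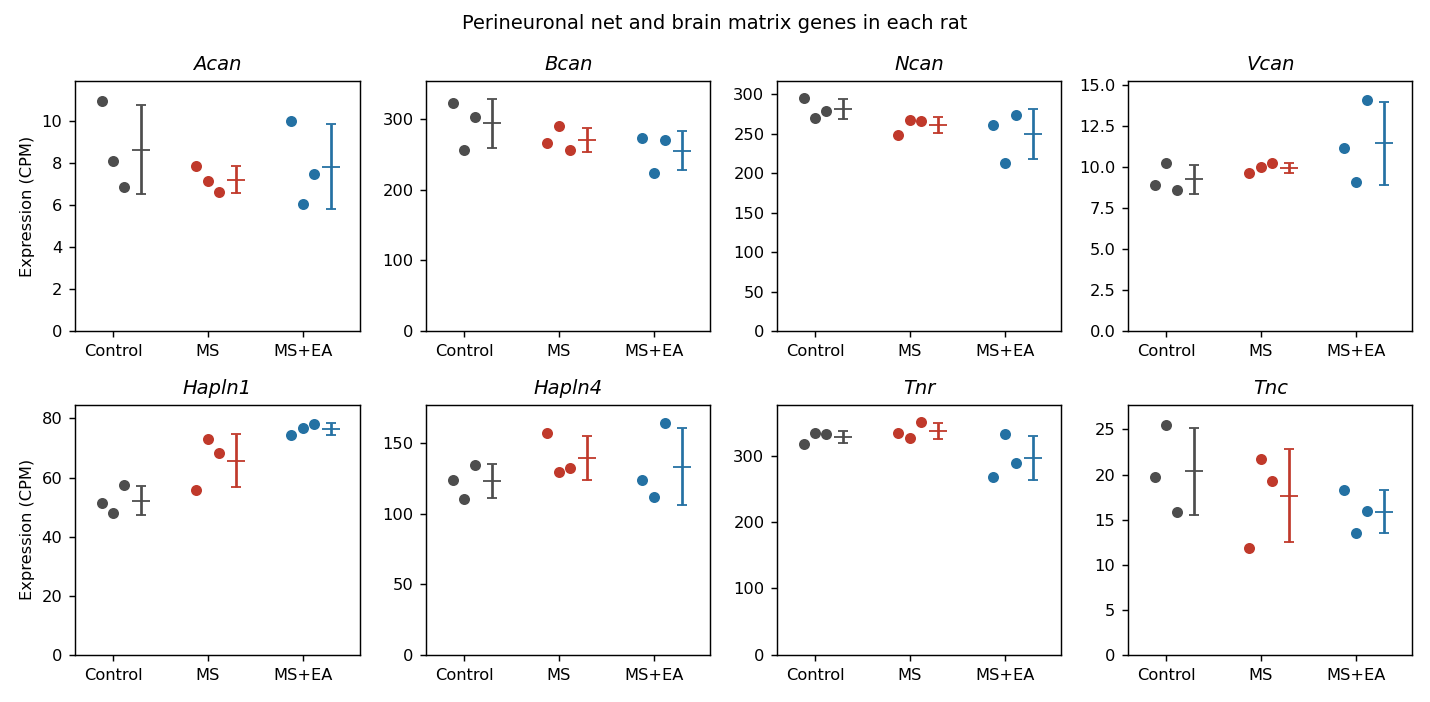
Expression of the 8 genes in CPM (linear axes from 0) in each rat, with the mean and SD of each group of 3 rats beside the points. The 3 MS+EA rats lie above all other rats for Hapln1, while in the other 7 panels MS+EA rats overlap both other groups.

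Among the link proteins, Hapln1 encodes the cartilage link protein, which is made by neurons that carry nets and binds aggrecan to hyaluronan. Its level was 51.3, 47.9 and 57.4 CPM in Control rats, 55.9, 73.1 and 68.2 CPM in MS rats, and 74.2, 76.9 and 78.0 CPM in MS+EA rats, from 786 to 1169 reads a rat. All MS+EA rats were above all MS and all Control rats, and of the MS rats only B3 lay within the Control range. The log2 fold change was 0.55 (SE 0.100, 95% interval 0.33 to 0.77) between MS+EA and Control, the 157th smallest p of the 16837 genes. It was 0.33 (SE 0.100, 95% interval 0.11 to 0.55) between MS and Control, with an unadjusted p of 0.00584 and an edgeR adjusted p of 0.233. It was 0.22 (SE 0.0997, 95% interval 0.00012 to 0.43) between MS+EA and MS, with an unadjusted p of 0.0499 and an edgeR adjusted p of 0.402. The means rose in the order Control (52.2 ± 4.79 CPM), MS (65.7 ± 8.89 CPM) and MS+EA (76.4 ± 1.92 CPM; SD, n = 3 each), and neither step between neighbours in that order passed the adjusted threshold.

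The MS+EA against Control difference of Hapln1 was 0.49 to 0.63 on the log2 scale over 16 alternative settings, with an adjusted p under 0.05 in 15 of them. Without the Control rat A1 the adjusted p was 0.0703, at a log2 fold change of 0.53. Without the Control rat A6 the log2 fold change was 0.63 and the gene was called. Without B4, the rat with the highest meningeal and hypothalamic sums, the MS against Control difference was 0.25 on the log2 scale (edgeR adjusted p = 0.662). Without B3 it was 0.44 (edgeR adjusted p = 0.0653).

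**Figure D2:**
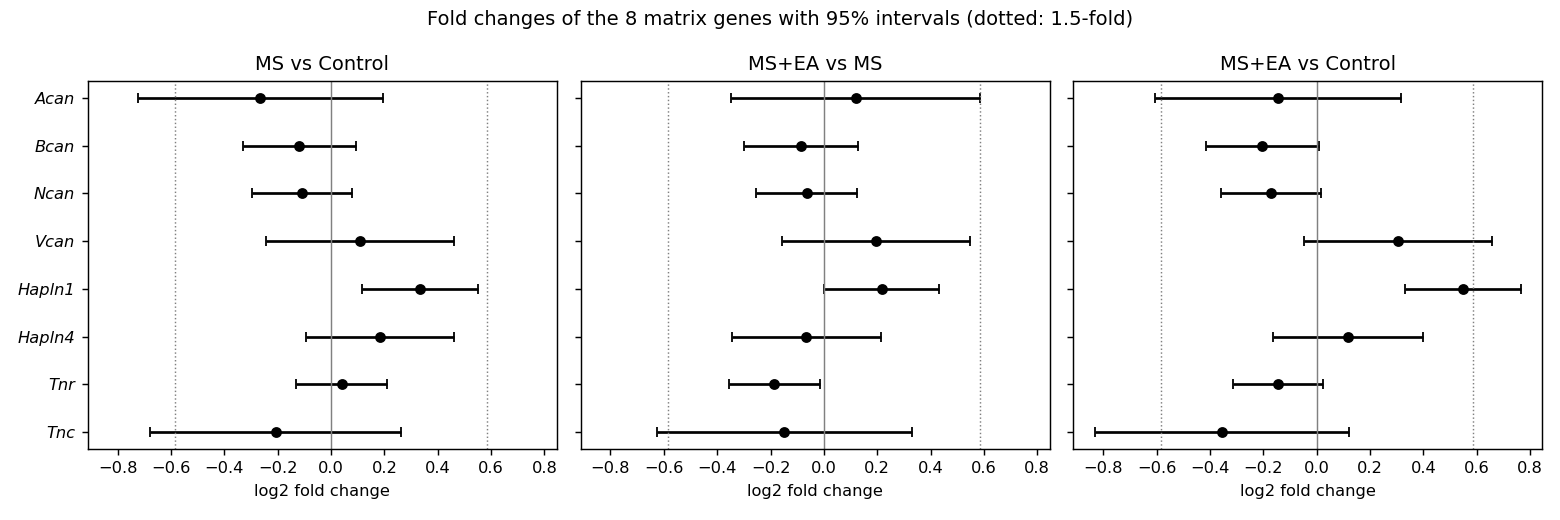
Log2 fold changes of the 8 genes (x axis) in the 3 comparisons from the fit of all 9 rats, with points for the estimates, bars for 95% intervals and dotted lines at a fold of 1.5 in either direction. The interval of Hapln1 lies above 0 in all 3 panels, from 0.33 to 0.77 between MS+EA and Control, and that of Tnr lies below 0 between MS+EA and MS.

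Hapln4 encodes the brain link protein 2, which is found in nets and at perisynaptic sites, where it holds brevican. It stood at 124, 111 and 135 CPM in Control rats, 157, 129 and 132 CPM in MS rats, and 124, 112 and 164 CPM in MS+EA rats. The groups overlapped, and the highest and the lowest MS+EA rats, C16 and C10, were farther apart than the extremes of either other group. Its log2 fold change was 0.18 (SE 0.129, edgeR adjusted p = 0.647) between MS and Control, -0.07 (SE 0.129, adjusted p = 0.873) between MS+EA and MS, and 0.12 (SE 0.129, adjusted p = 0.637) between MS+EA and Control. Its 95% interval between MS+EA and Control, -0.16 to 0.40, overlaps that of Hapln1, and the difference between the 2 genes was compared as a ratio of their reads within each rat.

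Such a ratio does not depend on the scaling between libraries, and it was chosen after the values had been seen. Reads of Hapln1 per 100 reads of Hapln4 were 41.5, 43.4 and 42.6 in Control rats, 35.5, 56.5 and 51.6 in MS rats, and 59.9, 68.5 and 47.4 in MS+EA rats. MS+EA rats were above all Control rats, by 1.38-fold in the mean (exact permutation test, two-sided, p = 0.1, the smallest that 3 against 3 rats can give), while MS rats lay on both sides of them (1.13-fold, exact p = 0.4). Reads of Hapln1 per 100 reads of the 4 lectican genes together were 8.06, 8.83 and 9.62 in Control rats, 10.5, 12.7 and 12.7 in MS rats, and 13.4, 17.0 and 13.8 in MS+EA rats. These 3 groups did not overlap. The means stood 1.35-fold apart between MS and Control, 1.23-fold between MS+EA and MS and 1.67-fold between MS+EA and Control. Each had the smallest exact permutation p, 0.1. Most lectican reads were of Bcan and Ncan, 6028 and 5505 in A1 against 205 of Acan and 166 of Vcan. From Control to MS and MS+EA, Bcan averaged 293, 270 and 255 CPM and Ncan 281, 261 and 249 CPM. Vcan went the other way, at 9.24, 9.95 and 11.4 CPM. The ratio thus also moved with its denominator, and Hapln1 alone overlapped between MS and Control through B3.

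**Figure D3:**
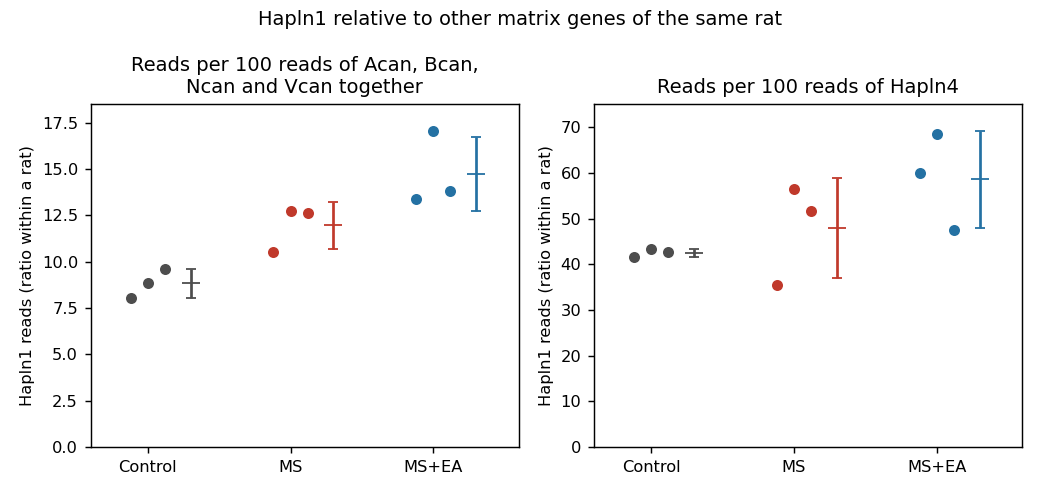
Reads of Hapln1 per 100 reads of the 4 lectican genes (left) and per 100 reads of Hapln4 (right) in each rat, on linear axes from 0, with the mean and SD of each group of 3 rats. On the left the Control rats reach 9.62, the MS rats run from 10.5 to 12.7 and the MS+EA rats start at 13.4. On the right MS rats span the Control values.

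Of the lecticans, brevican (Bcan) and neurocan (Ncan) had most reads, 3326 to 6028 and 3180 to 5505 a rat. Brevican is the main proteoglycan of the mature brain matrix, made by both glia and neurons, and neurocan is the more juvenile of the pair. Levels between genes were not compared, since no transcript lengths were used. Bcan was at 323, 255 and 302 CPM in Control rats, 265, 289 and 256 CPM in MS rats, and 272, 223 and 269 CPM in MS+EA rats. The groups overlapped, with C10 lowest and A1 highest. Its log2 fold change was -0.12 (SE 0.0981, edgeR adjusted p = 0.709) between MS and Control, -0.08 (SE 0.0984, adjusted p = 0.760) between MS+EA and MS, and -0.20 (SE 0.0983, 95% interval -0.42 to 0.01, adjusted p = 0.244) between MS+EA and Control.

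Ncan was at 295, 269 and 279 CPM in Control rats, 249, 268 and 266 CPM in MS rats, and 261, 213 and 274 CPM in MS+EA rats. Every MS rat was below every Control rat, by a margin of 269.3 against 267.6 CPM at the nearest, and C10 was again the lowest rat. No Ncan difference passed the adjusted threshold. On the log2 scale it was -0.11 (SE 0.0865, edgeR adjusted p = 0.696) between MS and Control. It was -0.06 (SE 0.0868, adjusted p = 0.799) between MS+EA and MS, the only estimate smaller than its SE. Between MS+EA and Control it was -0.17 (SE 0.0867, adjusted p = 0.264). Between MS and Control, 1 of the 8 genes (Ncan) had groups that did not overlap, and 17.6% of all genes tested did so. It was again 1 of 8 (Hapln1) between MS+EA and MS and between MS+EA and Control, beside 17.9% and 25.9% of all genes.

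Bcan and Ncan varied together over the 9 rats (Pearson r = 0.864, exact permutation p = 0.00333, adjusted p = 0.0933 over 28 pairs of genes; Spearman rho = 0.683, exact p = 0.0503, adjusted p = 0.763). With the group means removed r was 0.796. Without A1 and C10, the rats farthest from the median of Bcan, r was 0.446. Leaving out the extreme rats also narrows the range, so this cannot show whether the relation rested on them. None of the 28 pairs among the 8 genes passed the adjusted threshold by either measure.

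Aggrecan (Acan), the lectican on which the build-up of a net depends, had few reads, 90 to 205 a rat. Its level was 10.97, 8.11 and 6.84 CPM in Control rats, 7.87, 7.13 and 6.61 CPM in MS rats, and 9.99, 6.03 and 7.47 CPM in MS+EA rats. The groups overlapped throughout. The log2 fold change was -0.26 (95% interval -0.72 to 0.19, edgeR adjusted p = 0.695) between MS and Control, 0.12 (-0.35 to 0.59, adjusted p = 0.861) between MS+EA and MS, and -0.15 (-0.61 to 0.32, adjusted p = 0.736) between MS+EA and Control. These intervals do not exclude a change of 1.5-fold, downward between MS and Control and between MS+EA and Control, and upward between MS+EA and MS.

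Versican (Vcan), the lectican of the immature matrix and of nodes of Ranvier, had 135 to 177 reads a rat. It stood at 8.88, 10.2 and 8.58 CPM in Control rats, 9.62, 10.01 and 10.2 CPM in MS rats, and 11.2, 9.05 and 14.1 CPM in MS+EA rats. C16 and C3 were the highest rats, and C10 lay within the Control range. The log2 fold change was 0.11 (SE 0.162, edgeR adjusted p = 0.860) between MS and Control, 0.20 (SE 0.162, adjusted p = 0.655) between MS+EA and MS, and 0.30 (SE 0.163, 95% interval -0.05 to 0.66, adjusted p = 0.295) between MS+EA and Control. Vcan was thus the lectican with positive estimates in all 3 comparisons, as was its neighbour Hapln1, but none of the Vcan estimates passed the test.

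The other link protein genes beside lecticans gave no call. Hapln2, the link protein of nodes of Ranvier and made by oligodendrocytes, was at 19.5, 19.9 and 21.3 CPM in Control rats, 22.3, 11.1 and 13.0 CPM in MS rats, and 28.4, 11.4 and 24.7 CPM in MS+EA rats. Its spread followed no group, and its log2 fold change was -0.39 (edgeR adjusted p = 0.680), 0.47 (adjusted p = 0.539) and 0.09 (adjusted p = 0.898) in the order MS against Control, MS+EA against MS and MS+EA against Control. Hapln3 averaged 2.39, 2.61 and 2.62 CPM in the Control, MS and MS+EA groups.

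**Figure D4:**
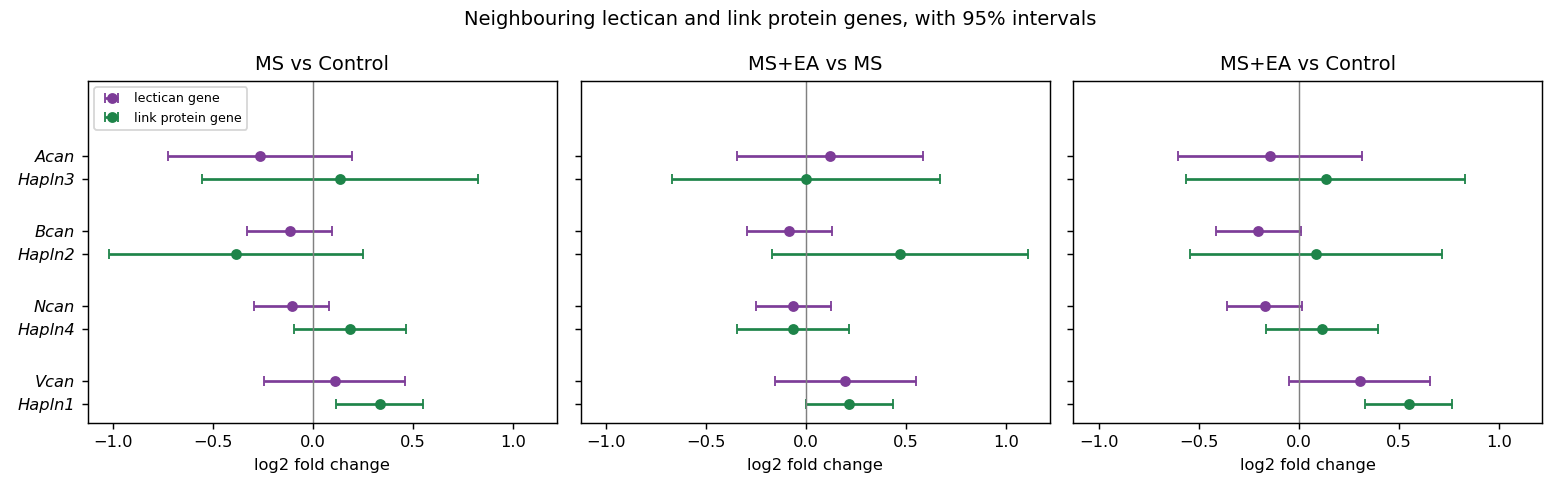
Log2 fold changes (x axis) of the 4 lectican genes and of the link protein gene next to each in the genome, with 95% intervals, in the 3 comparisons. The intervals of Hapln1 lie above 0, and those of the other 7 genes include 0 in every panel.

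Tenascin-R (Tnr), a glycoprotein of oligodendrocytes and of some neurons that ties lecticans together in the net, was the steadiest of the 8 genes, with an SD within groups of 0.101 on the log2 scale, beside a median of 0.134 over 11638 genes of at least 5 CPM. It stood at 317, 334 and 333 CPM in Control rats, 335, 326 and 351 CPM in MS rats, and 267, 333 and 289 CPM in MS+EA rats. C3 and C16 were below every other rat, and C10 lay among the Control and MS rats. The log2 fold change was 0.04 (SE 0.0783, edgeR adjusted p = 0.897) between MS and Control and -0.15 (SE 0.0785, adjusted p = 0.299) between MS+EA and Control. For MS+EA against MS it was -0.19 (SE 0.0785, 95% interval -0.36 to -0.02), with an unadjusted p of 0.0348 and an edgeR adjusted p of 0.362.

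Tenascin-C (Tnc), the tenascin of the developing brain and of reactive astrocytes, was the most variable, with an SD within groups of 0.357 on the log2 scale from 201 to 418 reads. It was at 19.7, 25.5 and 15.9 CPM in Control rats, 11.8, 21.8 and 19.3 CPM in MS rats, and 18.2, 13.5 and 15.98 CPM in MS+EA rats. The rats of the 3 groups overlapped. The log2 fold change was -0.21 (95% interval -0.68 to 0.26, edgeR adjusted p = 0.779), -0.15 (-0.63 to 0.33, adjusted p = 0.823) and -0.36 (-0.83 to 0.12, adjusted p = 0.364) in the order MS against Control, MS+EA against MS and MS+EA against Control.

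Counted together, 4 of the 8 genes were higher and 4 lower in MS than in Control rats, and 3 were higher and 5 lower in MS+EA than in MS and in Control rats. The median log2 fold change of the 8 was -0.03, -0.07 and -0.15 in these comparisons, beside medians over all genes tested of -0.0014, 0.00059 and 0.0055. At an unadjusted p under 0.05, 1 gene was higher (Hapln1) and 0 lower between MS and Control, where 7.06% of all genes were higher and 3.55% lower. For MS+EA against MS, 1 was higher (Hapln1) and 1 lower (Tnr), where 6.01% of all genes were higher and 6.42% lower. For MS+EA against Control, 1 was higher (Hapln1) and 0 lower, where 11.9% of all genes were higher and 10.6% lower. The 95% interval lay wholly inside a 1.5-fold change in both directions for 6, 6 and 4 of the 8 genes. The summed level of the 8 genes was 1061 to 1149 CPM in Control, 1091 to 1124 CPM in MS and 987 to 1112 CPM in MS+EA rats.

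The rest of the pathway was read from lists of genes that build, cut, bind or share the matrix. The counts for lists and markers below stand beside these shares of all genes. Calls were 0.0238% between MS and Control, 0.0178% between MS+EA and MS and 1.37% between MS+EA and Control. At an unadjusted edgeR p under 0.05, in the same order, 7.06%, 6.01% and 11.9% were higher, and 3.55%, 6.42% and 10.6% lower. Of the hyaluronan synthases and the remaining link proteins, 4 of 5 were tested (Has1 was not), and none was called in any comparison. Has2, which makes long hyaluronan, had only 7 to 32 reads a rat and stood at 0.856, 0.427 and 0.684 CPM in Control, 0.816, 1.13 and 1.56 CPM in MS and 2.22, 1.54 and 0.715 CPM in MS+EA rats, a log2 fold change of 1.18 between MS+EA and Control (edgeR adjusted p = 0.156). The groups overlapped through C16.

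Of 21 genes of chondroitin sulphate synthesis, 19 were tested. Dsel, a dermatan sulphate epimerase, was called higher in MS+EA than in Control rats, and no other gene of the list was called in any comparison. It stood at 34.2, 35.2 and 33.5 CPM in Control rats, 40.2, 44.9 and 52.3 CPM in MS rats, and 45.2, 57.4 and 52.3 CPM in MS+EA rats. All MS and all MS+EA rats were above all Control rats, with a log2 fold change of 0.59 (SE 0.111, edgeR adjusted p = 0.0143) between MS+EA and Control and of 0.42 (adjusted p = 0.186) between MS and Control. The call held in 11 of 16 alternative settings. Without A1 the adjusted p was 0.0703, and in the other settings that lost the call the fold was just under 1.5 except without C10, where the log2 fold change was 0.50. B3gat3, which adds the last sugar of the linker that starts each chain, was at 150 ± 12.7 CPM in Control, 146 ± 7.20 CPM in MS and 124 ± 9.52 CPM in MS+EA rats, a log2 fold change of -0.27 between MS+EA and Control (adjusted p = 0.0662). Chst15, which adds a further sulphate to the chains, was at 80.7 ± 6.88 CPM in MS and 68.0 ± 7.37 CPM in MS+EA rats (-0.25, adjusted p = 0.305). At an unadjusted p under 0.05, 1 gene was higher and 0 lower between MS and Control, 0 and 3 between MS+EA and MS, and 1 and 3 between MS+EA and Control. The summed level of the list was 857 to 919 CPM in Control, 889 to 930 CPM in MS and 822 to 830 CPM in MS+EA rats, lowest in all 3 MS+EA rats, while the median log2 fold change of its genes between MS+EA and Control was -0.05.

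Of 25 proteases and inhibitors of matrix breakdown in the table, 23 were tested and none was called. At an unadjusted p under 0.05, 2 were higher and 0 lower between MS and Control, 2 and 4 between MS+EA and MS, and 3 and 4 between MS+EA and Control. Mmp16, a membrane-bound metalloproteinase, passed an adjusted p of 0.05 between MS+EA and Control, with 74.2, 86.0 and 85.8 CPM in Control, 81.6, 83.3 and 97.2 CPM in MS, and 107, 126 and 115 CPM in MS+EA rats. All MS+EA rats were above all other rats, with a log2 fold change of 0.51 (SE 0.0912, edgeR adjusted p = 0.0127) against Control and of 0.41 (adjusted p = 0.184) against MS. The adjusted p against Control passed in 15 of 16 alternative settings and was 0.0703 without A1. Mmp14, another membrane-bound metalloproteinase, was at 9.42, 5.79 and 6.40 CPM in Control, 10.6, 29.6 and 14.9 CPM in MS, and 10.5, 5.76 and 11.4 CPM in MS+EA rats, with B4 far above the rest. Its log2 fold change between MS and Control was 1.34 (edgeR adjusted p = 0.178), and 0.81 without B4 (adjusted p = 0.550). Mmp9, which cuts aggrecan and other net proteins, was at 3.28 ± 0.394 CPM in Control and 5.85 ± 0.356 CPM in MS rats. That was a log2 fold change of 0.83 (edgeR adjusted p = 0.280). In MS+EA rats Mmp9 was at 2.98, 5.03 and 7.47 CPM, and it had only 43 to 103 reads a rat. Adamts1, which also cuts lecticans, was at 24.7 ± 2.49 CPM in MS and 17.0 ± 2.12 CPM in MS+EA rats (-0.54, adjusted p = 0.274), and Mmp24 at 71.2 ± 5.07 CPM in Control and 57.9 ± 4.88 CPM in MS+EA rats (-0.30, adjusted p = 0.0566).

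All 14 matrix receptors were tested and none was called. At an unadjusted p under 0.05, 1 was higher and 0 lower between MS and Control, 1 and 1 between MS+EA and MS, and 3 and 4 between MS+EA and Control. In MS+EA against Control rats, 3 of the 14 passed an adjusted p of 0.05 at folds under 1.5, beside 5.4% of all genes. The integrin subunit Itgav, a receptor chain for matrix proteins, went from 293 ± 21.4 to 379 ± 15.3 CPM (log2 fold change 0.37, edgeR adjusted p = 0.0240), and Itgb8, a partner of it, from 128 ± 7.56 to 155 ± 11.6 CPM (0.27, adjusted p = 0.0465). Rtn4r, the Nogo receptor, which also binds chondroitin sulphate, went from 76.3 ± 9.17 to 59.8 ± 3.34 CPM (-0.35, adjusted p = 0.0477) and was named after its values had been seen. Ptprs, the receptor phosphatase of chondroitin sulphate chains, was at 751 ± 24.4 CPM in Control and 640 ± 35.8 CPM in MS+EA rats (-0.23, adjusted p = 0.0544). Of 16 alternative settings, Itgav passed the adjusted threshold in 11, Itgb8 in 5 and Rtn4r in 4. Their highest adjusted p-values were 0.0749 for Itgav without C16, 0.141 for Itgb8 without A6 and 0.179 for Rtn4r without A1.

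Among 23 other matrix and net proteins, 21 were tested. Spock3, a secreted testican proteoglycan, was called higher in MS+EA than in Control rats, with 55.6, 47.8 and 45.4 CPM in Control, 46.8, 52.8 and 62.2 CPM in MS, and 77.6, 75.9 and 75.3 CPM in MS+EA rats. The MS+EA rats were above all others, and the log2 fold change was 0.62 (SE 0.105, edgeR adjusted p = 0.0104) against Control and 0.50 (adjusted p = 0.184) against MS. The call held in 15 of 16 alternative settings, and without A6 the log2 fold change was 0.57, under the fold threshold. Cspg5, the transmembrane proteoglycan neuroglycan C, fell from 243 ± 23.7 CPM in Control to 188 ± 12.9 CPM in MS+EA rats (-0.37, edgeR adjusted p = 0.0308), and passed in 12 of 16 alternative settings, with an adjusted p of 0.137 without A1. Spock1, another testican, was at 282 ± 3.82, 283 ± 13.9 and 242 ± 20.5 CPM in the 3 groups (-0.23 between MS+EA and MS, adjusted p = 0.260). Sema3a, a guidance protein that binds to nets, was at 61.1 ± 6.96, 80.6 ± 13.5 and 80.6 ± 3.17 CPM in the Control, MS and MS+EA groups (0.40 between MS and Control, adjusted p = 0.215). Bgn, a small proteoglycan of connective tissue, reached 66.9 CPM in B4 and 58.9 CPM in C16, beside 14.1 to 17.1 CPM in Control rats, and its MS against Control log2 fold change of 1.18 (adjusted p = 0.394) was 0.40 without B4 (adjusted p = 0.864). At an unadjusted p under 0.05, 2 genes of the list were higher and 2 lower between MS and Control, 1 and 4 between MS+EA and MS, and 3 and 5 between MS+EA and Control. Otx2, a homeoprotein that nets capture, had 0 reads in all 9 libraries.

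The cells that bear and make the matrix were followed by markers. Pvalb, which defines the interneurons most often wrapped by nets, was at 39.2, 35.8 and 38.1 CPM in Control, 41.8, 36.3 and 41.4 CPM in MS, and 30.04, 34.4 and 36.1 CPM in MS+EA rats. Every MS+EA rat was below every MS rat, at a log2 fold change of -0.25 (unadjusted p = 0.0213, edgeR adjusted p = 0.322), and -0.17 (adjusted p = 0.318) against Control. The list of 12 parvalbumin interneuron markers also held genes shared with other inhibitory neurons, such as Gad1, Gad2 and Slc32a1. Its sum was 734 to 760, 729 to 854 and 696 to 832 CPM in the Control, MS and MS+EA groups and does not stand for parvalbumin cells alone. Gad1 had the most reads of the 12, 4276 in A1 against 732 of Pvalb. Between MS+EA and MS, 11 of the 12 were lower and 1 higher. At an unadjusted edgeR p under 0.05, 2 were lower and 0 higher there, beside 6.42% and 6.01% of all genes. None of the markers passed the adjusted threshold, and none was at 0 in any library. The 10 excitatory neuron markers summed to 4664 to 5501, 4808 to 4902 and 4178 to 4302 CPM in the Control, MS and MS+EA groups. The sum was thus lowest in the MS+EA rats, in which Hapln1 was highest. Most of its reads were of Camk2a and Slc17a7, 47485 and 30557 in A1. Between MS+EA and Control, 7 of the 10 markers were lower and 3 higher. An adjusted p of 0.05 was passed by 3 (Slc17a7, Fezf2 and Camk2a), all lower, beside 5.4% of all genes. The part of these markers in the Hapln1 result was not tested.

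Astrocyte markers (11) summed to 5506 to 6614 CPM in Control, 6115 to 6405 CPM in MS and 5125 to 6119 CPM in MS+EA rats, and none passed the adjusted threshold. Of the markers of oligodendrocyte precursors, which make versican, brevican and neurocan, 9 of 10 were tested and their sums were 303 to 347, 288 to 334 and 248 to 344 CPM in the 3 groups, with C10, the lowest rat for Bcan and Ncan, also the lowest here. Mature oligodendrocyte markers (10) summed to 2283 to 3480, 2015 to 3123 and 2213 to 4502 CPM. Between MS and Control, 9 of them were lower and 1 higher. Between MS+EA and MS all 10 were higher, 2 of them at an unadjusted edgeR p under 0.05. Between MS+EA and Control, 9 were higher and 1 lower. The microglial sums (10) were 346 to 390, 327 to 367 and 293 to 374 CPM, and the endothelial sums (8 of 10 tested) 177 to 195, 227 to 279 and 190 to 241 CPM. Between MS and Control all 10 microglial markers were lower, 0 of them at an unadjusted edgeR p under 0.05. All 8 endothelial markers were higher there, 4 of them at an unadjusted p under 0.05, beside 7.06% of all genes. Between MS+EA and MS, 6 endothelial markers were lower (3 at an unadjusted p under 0.05) and 2 higher. Meningeal fibroblast markers were higher in MS than in Control rats at an unadjusted p under 0.05 for 9 of 10 and higher in MS+EA than in Control rats for 7 of 10. Their sums were 49.5 to 60.0 CPM in Control, 71.5 to 543 CPM in MS and 74.6 to 291 CPM in MS+EA rats, and Ogn, one of them, was at 0 in 2 libraries. By rat, the sums were 60.0, 49.5 and 52.4 CPM in Control, 71.5, 543 and 128 CPM in MS, and 185, 74.6 and 291 CPM in MS+EA rats. Within the MS group Hapln1 had the same order of rats as the meningeal sum (B3, B6, B4). Within the MS+EA group C16 was highest for both, while C3 and C10 stood in opposite orders. Orders of 3 rats are too few to show whether the measures are related. The markers of striatal neurons summed to 314 to 379 CPM over the 9 rats. Of the hypothalamic neuron markers, 4 of 10 were tested (Oxt, Avp, Agrp and Pmch). They summed to 0.954 to 4.92 CPM outside B4, where the sum was 48.0 CPM. Choroid plexus markers (5 of 8 tested) summed to 85.8 to 123 CPM, mostly from Enpp2 (1051 to 2089 reads a rat), which other brain cells also express. Ttr, the more specific choroid plexus marker, had 146 reads in B4 and 7 to 37 reads in each other rat. The part of these markers in the differences above was not tested.

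Genes whose levels followed each of the 8 most closely were ranked by Pearson r of log2 CPM over the 9 rats among the 11638 genes of at least 5 CPM, as a description of these libraries. For Hapln1 they were Rimklb (r = 0.979), LOC102555377 (r = 0.979) and Zfp654 (r = 0.964). For Bcan they were Anks1a (0.975), Srebf1 (0.974) and Por (0.973), and for Ncan Txnrd1 (0.965), Gtf2ird2 (0.961) and Galns (0.95). Acan was followed by Slc6a9 (0.974), Wscd1 (0.970) and Carhsp1 (0.959), and Vcan by Mmgt2 (0.961), Wnk1 (0.944) and Slc30a1 (0.932). For Hapln4 they were Stac2 (0.959), Vamp1 (0.926) and Rara (0.862), for Tnr Pcnx (0.961), Mmd (0.952) and Trpc5 (0.949), and for Tnc Bloc1s1 (0.926), LOC691113 (0.908) and Gnpda1 (0.898). None of the 24 nearest genes was another of the 8.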

How the data were processed

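Per the labels and the methods, total RNA was depleted of rRNA and sequenced on a HiSeq X, and the reads were filtered with FastQC and mapped to Rnor_6.0 with HISAT2 2.0.4. The deposited values are whole-number read counts per gene, which the authors left without normalization. The counting program, its strand setting and the treatment of reads with several locations are not given in the sources used here, so reads of overlapping or near-identical genes may be shared.

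The 9 rats were grouped by their labels. Counts were scaled by TMM, filtered by filterByExpr (minimum count 10) and fitted together in edgeR 4.0.16 (R 4.3.3) with a mean per group, and each comparison was tested by the quasi-likelihood F test with Benjamini-Hochberg adjustment over 16837 genes. A call needed a fold above 1.5 and an adjusted p below 0.05. The study's own differential test was not installed here and was not used. CPM are counts per 1000000 counts, TMM-scaled. The SE of a log2 fold change was derived from its size and F. The biological coefficient of variation was 12.7%. The fit was checked on simulated counts. Alternatives were other scalings and filters, DESeq2 1.42.0, limma-trend (limma 3.58.1, prior count 1), only the 6 rats compared, no fold threshold and each rat left out. Read ratios within a rat were tested by exact permutation (Python 3.11.15, scipy 1.17.1).

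The 8 genes, the lists and the markers were chosen with earlier results of these data known. Named were all 8 genes, any called gene of the other matrix lists, up to 2 genes per list and comparison with the smallest unadjusted p under 0.05, and the 3 genes nearest in pattern to each of the 8. Rtn4r and the excitatory markers were added after their values had been seen, because few genes of their lists passed. With 3 rats a group, p-values rest on the spread between single animals. RefSeq gene order and upstream sequences came from GRCr8.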

Additional observations from a re-analysis of the deposited data

How the results depend on the processing

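All adjusted p-values are from the tool named for each setting. Of 168 log2 fold changes of the 8 genes under other scalings, filters, tools and sample sets, all 168 kept their direction and their side of the threshold. Over 216 with 1 rat left out, 205 did so. The count of the 8 genes called between MS+EA and Control, 0, became 1 without the fold threshold and ranged from 0 to 1 over rats left out (Hapln1, without A6). Directions turned only among estimates that had not passed. With 1 rat left out, the log2 fold change between MS and Control ranged for Tnc from -0.39 to 0.0119. Between MS+EA and MS it ranged for Hapln4 from -0.24 to 0.0436, for Tnc from -0.37 to 0.0388, for Acan from -0.0911 to 0.28, for Bcan from -0.13 to 0.0026 and for Ncan from -0.14 to 0.0367. Between MS+EA and Control it ranged for Acan from -0.36 to 0.0653 and for Hapln4 from -0.0603 to 0.23. The ratio of Hapln1 to lectican reads ranged over rats left out from 1.54-fold (without C10) to 1.75-fold between MS+EA and Control. It ranged from 1.30-fold to 1.44-fold between MS and Control and from 1.14-fold to 1.29-fold between MS+EA and MS. The ratio of Hapln1 to Hapln4 reads ranged from 1.03-fold to 1.27-fold between MS and Control, from 1.08-fold to 1.35-fold between MS+EA and MS, and from 1.26-fold to 1.51-fold between MS+EA and Control.

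The number of genes called over the whole table moved more. Between MS and Control it was 4, and 207 with at least 1 count, 70 with DESeq2, 11 with only the 6 rats compared and 2 (without A1 or A2) to 22 (without B3) over rats left out. For MS+EA against MS it was 3, and 0 with at least 10 counts in every rat, 72 with at least 1 count, 37 with DESeq2, 1 with only the 6 rats compared and 1 to 4 over rats left out. For MS+EA against Control it was 230, and 469 with at least 1 count, 910 without the fold threshold and 71 (without A1) to 304 (without B4) over rats left out. The cause of these moves was not tested.

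No paired analysis was possible because no animal appears in more than 1 group and the groups share fewer than 2 replicate numbers. For Acan and Tnc, few reads and the widest spread limit the precision. A sham EA group, sequencing batches and litters were not analysed here, and every MS+EA library was less deep than every other.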
